A study of Mus musculus with 17 samples.

Results

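Mitochondrial fatty acid oxidation was examined through 10 genes of the pathway core, Cpt1a, Slc25a20, Cpt2, Acadvl, Acadl, Acadm, Hadha, Hadhb, Acaa2 and Etfdh. They were named as the pathway's core enzymes, with earlier results of these data known, and taken by gene symbol from the 24676 genes of the table of normalized counts. All 10 passed the filter on low values (10 or more normalized counts in 4 libraries or more), as did 13379 genes in all.

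The libraries came from livers of male mice of mixed strain, labelled 11 weeks old, that carried loxP-flanked Gata4 alleles (Gata4 fl/fl) in every group. Gata4 is a liver transcription factor, and GW3965 is a synthetic compound that activates LXR, the oxysterol-sensing liver X receptors. The 4 control vehicle and 4 control GW3965 libraries came from mice given an empty AAV8 (adeno-associated virus of serotype 8), and the 4 Gata4LKO vehicle and 5 Gata4LKO GW3965 libraries from mice given AAV8-Tbg-Cre, in which the hepatocyte promoter Tbg drives Cre recombinase. Virus was given 1 week before treatment. GW3965 at 40 mg/kg, or dimethylsulfoxide in the same canola oil, was gavaged 17 h and again 8 h before killing, and food was withheld for the last 4 h. The Cre cargo and the intended Gata4 deletion cannot be told apart, and Cre driven by Tbg leaves Gata4 intact in cells other than hepatocytes.

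In mitochondrial fatty acid oxidation, long-chain acyl groups cross the inner membrane as carnitine esters and are then shortened stepwise to acetyl-CoA. Electrons released by the first step of each round reach ubiquinone through the electron transfer flavoprotein and its dehydrogenase. In the liver the pathway feeds ketone body formation during fasting and is known to be induced through the nuclear receptor PPARA, while malonyl-CoA, the first product of fatty acid synthesis, inhibits the entry step.

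Each library held 11.8 to 22.05 M reads in genes. Transcripts encoded on the mitochondrial genome took 15.6% to 32.6% of the normalized counts in 5 libraries (control vehicle replicate 1, control GW3965 replicates 10 and 13, and Gata4LKO GW3965 replicates 17 and 18) and 6.06% to 7.26% in the other 12. This share rests on the 9 transcripts of that genome that passed the filter, since mt-Nd3, mt-Co2, mt-Co3 and mt-Atp6 were under 10 in every library. Gata4LKO vehicle replicate 6 and Gata4LKO GW3965 replicate 16 had the fewest genes above 0, 15515 and 15601. All 12 hepatocyte markers examined passed the filter on low values, and their summed level was 1610802 to 2521189 by library. Groups followed the sample titles, which the treatment label contradicted in 8 libraries. With vehicle, Gata4 itself stood at 194 ± 44.2 in the libraries labelled Gata4LKO and 153 ± 27.3 in controls (SD, n = 4 each), and with GW3965 at 219 ± 41.2 (n = 5) and 221 ± 44.1 (n = 4). Neither difference passed the threshold (limma log2 difference 0.32 and -0.01, adjusted p = 0.91 and 0.999), so the counts do not show a loss of Gata4 and the genotypes below are those the libraries are labelled with. Counts over the whole gene do not resolve the floxed exons. Among 14 LXR target genes, 12 rose with GW3965 averaged over both genotypes at an adjusted p below 0.05 in limma's test (all genes: 1.34% rose). Without the 5 libraries with a high mitochondrially encoded share it was 11.

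The promoters are shown first because Hadha and Hadhb, the subunits of 1 enzyme, share theirs, and because the acyl-CoA dehydrogenases gave the largest and the most divergent values below. Each line is a RefSeq window on the GRCm38.p6 (mm10) build from 250 bases before to 50 bases after an annotated start, written 5′ to 3′ on the strand of the gene. For Hadhb (chr5:30155003-30155302, plus strand) the capitals mark the 85 bases between the annotated starts of Hadha and Hadhb. For Acadvl (chr11:70015379-70015678, minus strand), Acadl (chr1:66863260-66863559, minus strand) and Acadm (chr3:153944594-153944893, minus strand) they mark matches to the hexamer AGGTCA on either strand, the core of many nuclear receptor elements.
Hadhb: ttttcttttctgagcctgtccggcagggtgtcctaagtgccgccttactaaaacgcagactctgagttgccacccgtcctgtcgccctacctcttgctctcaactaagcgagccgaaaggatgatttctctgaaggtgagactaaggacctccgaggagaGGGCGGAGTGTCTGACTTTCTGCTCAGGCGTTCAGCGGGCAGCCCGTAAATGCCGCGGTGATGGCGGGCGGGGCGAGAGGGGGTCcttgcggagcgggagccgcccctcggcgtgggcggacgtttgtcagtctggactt
Acadvl: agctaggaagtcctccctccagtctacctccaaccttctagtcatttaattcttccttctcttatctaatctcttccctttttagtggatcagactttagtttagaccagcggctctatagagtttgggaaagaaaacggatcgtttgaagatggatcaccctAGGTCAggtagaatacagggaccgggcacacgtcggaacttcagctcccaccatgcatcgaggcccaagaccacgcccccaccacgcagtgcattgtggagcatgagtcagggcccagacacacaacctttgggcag
Acadl: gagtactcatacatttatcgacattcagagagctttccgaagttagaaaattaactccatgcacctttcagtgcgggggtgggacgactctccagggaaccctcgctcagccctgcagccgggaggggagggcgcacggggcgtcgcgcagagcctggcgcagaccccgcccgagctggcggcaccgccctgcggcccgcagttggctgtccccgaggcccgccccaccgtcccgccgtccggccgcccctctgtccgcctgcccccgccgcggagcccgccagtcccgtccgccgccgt
Acadm: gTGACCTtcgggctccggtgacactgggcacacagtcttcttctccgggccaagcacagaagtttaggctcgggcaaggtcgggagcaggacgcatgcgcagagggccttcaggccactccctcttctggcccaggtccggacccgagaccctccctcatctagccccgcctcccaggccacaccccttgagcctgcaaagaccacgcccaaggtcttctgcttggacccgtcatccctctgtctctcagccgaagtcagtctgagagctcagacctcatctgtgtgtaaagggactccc

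In the annotation Hadha lies on the minus strand of chromosome 5 (30118304 to 30155162) and Hadhb on the plus strand (30155248 to 30184593), head to head. Their RefSeq windows had 228 bases in common. Windows were found for 9 of the 10 genes. AGGTCA on either strand occurred in 3 of these 9 windows (Cpt1a, Acadvl and Acadm), against 16.3% of all 32851 windows of that length. The direct repeats AGGTCANAGGTCA (DR1, the form bound by PPARA with RXR) and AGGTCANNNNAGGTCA (DR4, the form bound by LXR with RXR) were in 0 of 9 as exact letters, against 0.0396% and 0.0152% of all windows. The GC box GGGCGG, which also fits inside longer GC-rich runs, was in 7 of 9 (all but Acadvl and Acadm) against 35.7%, CCAAT in 2 (Cpt1a and Etfdh) against 37.4%, and TATAAA in 0 against 13.6%. GC content ran from 50.7% in the window of Acadvl to 70.3% in that of Acadl, with a median of 52.7% over all windows.

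**Figure D1:**
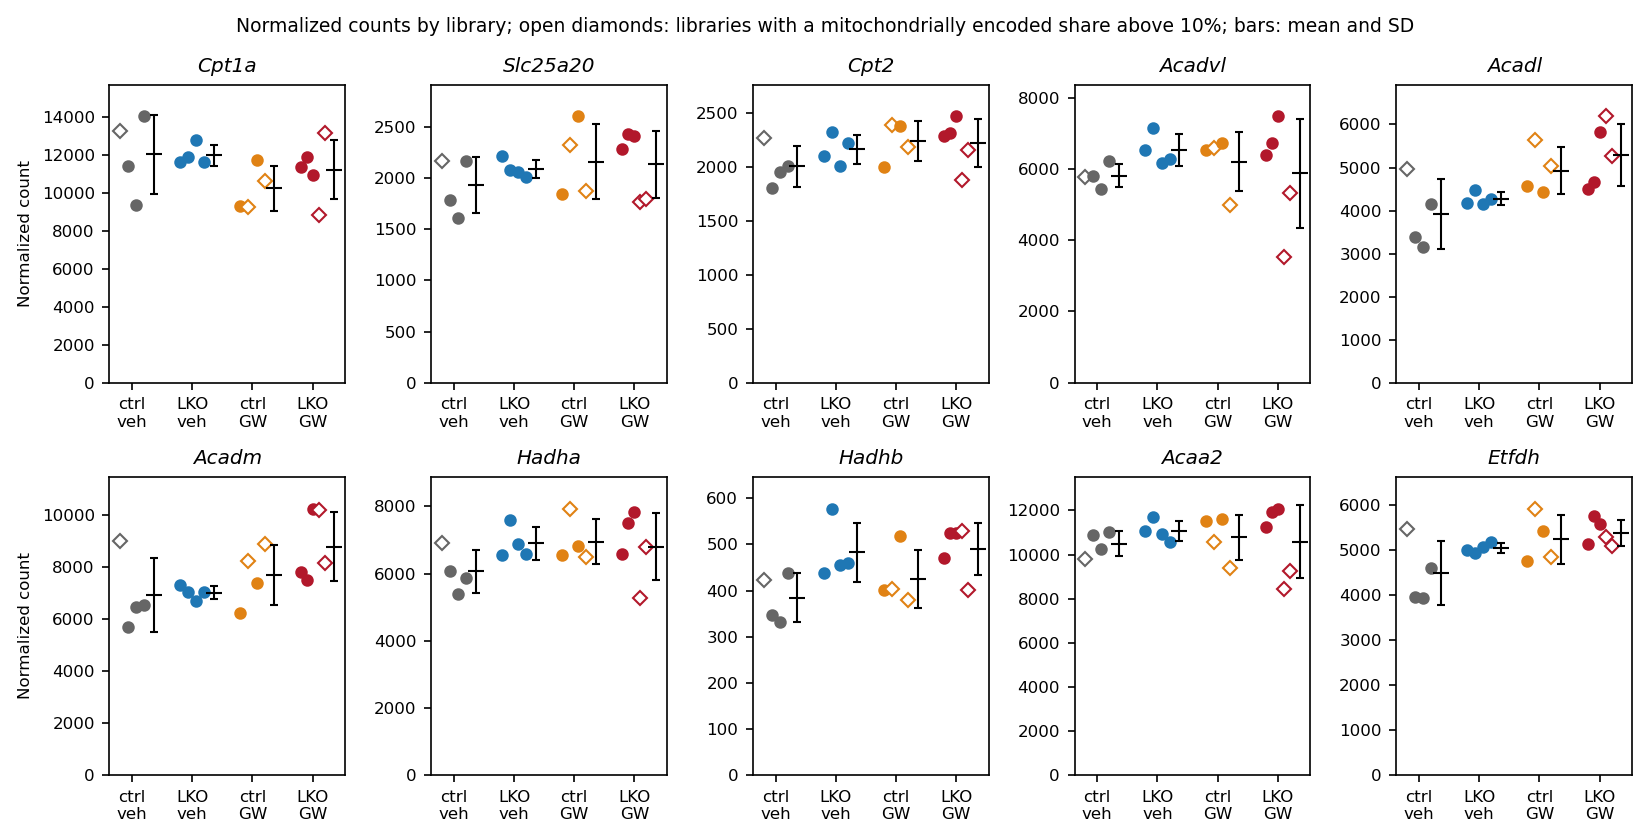
Normalized counts (y axis, from 0) of the 10 genes in each of the 17 libraries by group (ctrl, control; LKO, Gata4LKO; veh, vehicle; GW, GW3965), with the mean and SD beside each group. Open diamonds are the 5 libraries with a mitochondrially encoded share above 10%. The groups overlap in most panels, and Acadvl is lowest in 1 of the open diamonds, at 3519.

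None of the 10 genes changed past the threshold in any comparison. In limma's test on log2(normalized count + 1) over all 17 libraries, with Benjamini-Hochberg adjustment over all genes tested and calls at an adjusted p below 0.05, 0 of 10 were called for GW3965 against vehicle in control livers, where 106 genes (0.792% of all tested) were, and 0 of 10 in livers labelled Gata4LKO, where 33 (0.247%) were. Averaged over genotypes, 0 of 10 were called against 238 genes (1.78%). Between genotypes, 0 of 10 were called with vehicle, with GW3965 and averaged over treatments, where the background was 0.0149%, 0.0598% and 0.224%. For the interaction, the difference between the GW3965 responses of the 2 genotypes, it was 0 of 10 against 0.0149%. At an unadjusted p under 0.05 the counts were 1, 2 and 2 of 10 for GW3965 in control, in Gata4LKO and averaged (background 8.96%, 12% and 15.3%), 1, 0 and 1 for genotype with vehicle, with GW3965 and averaged (6.15%, 6.47% and 7.19%), and 0 for the interaction (4.65%). edgeR's quasi-likelihood test on the recovered reads also called 0 of 10 in each comparison, and DESeq2 called 1, Acadl, for GW3965 averaged over genotypes. In the authors' deposited tables, 0 of 10 had an adjusted p below 0.05 in each of the 5 comparisons.

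The intervals give a range for each gene and comparison taken alone, under the main scaling, and are not a joint bound. For GW3965 averaged over genotypes, the 95% intervals of the 10 genes lay between 0.776-fold and 1.44-fold, and over all 6 comparisons of treatment or genotype between 0.685-fold and 1.56-fold. The median log2 difference of the 10 genes for GW3965 was 0.16 in control livers, 0.02 in Gata4LKO livers and 0.09 averaged, with 9, 6 and 7 of 10 above 0 (all genes: 49.1%, 49.4% and 48.9% above 0). Between genotypes it was 0.14 with vehicle, 0.01 with GW3965 and 0.07 averaged, with 10, 5 and 10 of 10 above 0 (all genes: 48.5%, 47.1% and 47.2%). Under TMM scaling the Gata4LKO count with GW3965 became 4 of 10 and the medians of that comparison and of genotype with GW3965 turned negative (-0.01 each). Scaling without mitochondrially encoded genes, which moved the median of all genes between genotypes from -0.01 to 0.10, gave 10 of 10 above 0 between genotypes with GW3965 too. Without the 5 libraries with a high mitochondrially encoded share, 9 of 10 were above 0 for GW3965 in control, in Gata4LKO and averaged (medians 0.20, 0.10 and 0.17). Between genotypes it was 10 of 10 with vehicle, with GW3965 and averaged (medians 0.18, 0.12 and 0.17). The share of all genes above 0 in that setting is not given here. Genotype and treatment comparisons share libraries, and some of the genes were correlated across libraries, so these counts of direction are a description.

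**Figure D2:**
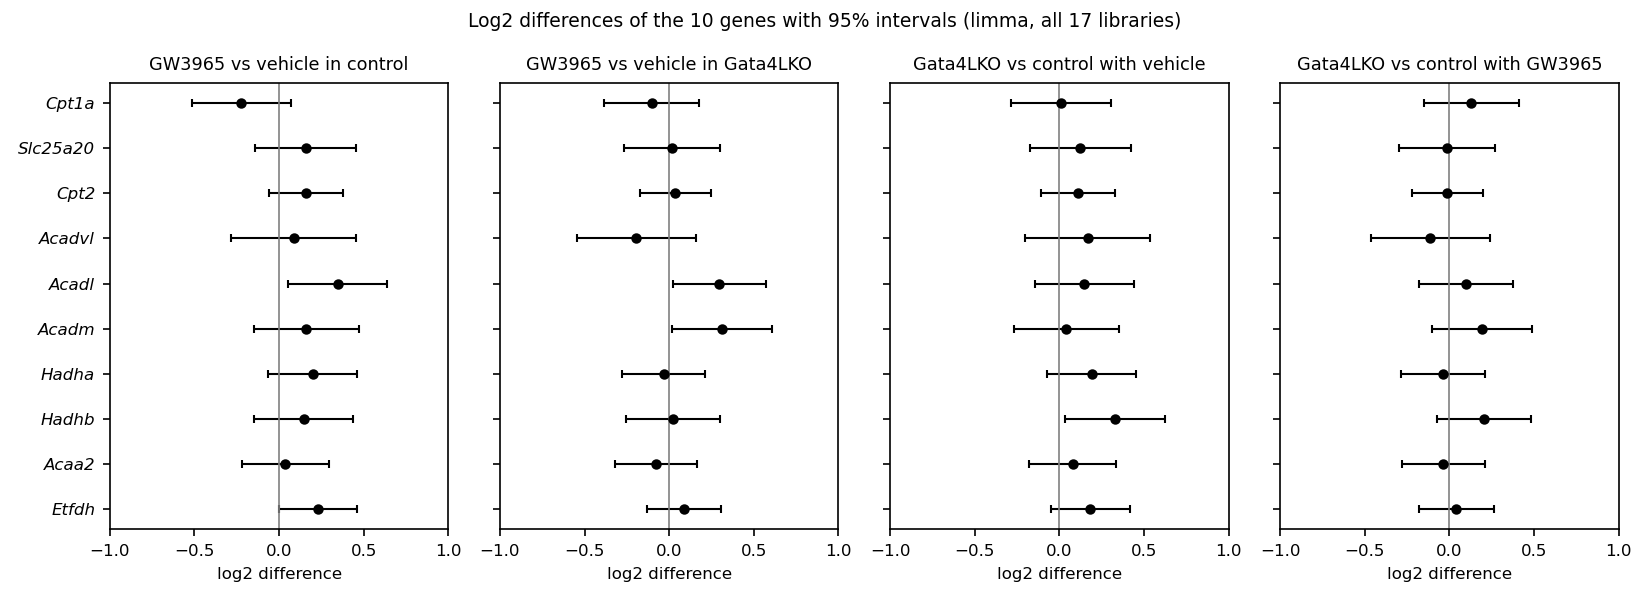
Log2 differences (x axis) of the 10 genes with 95% intervals from limma, in 4 comparisons. Intervals cross 0 for all genes but Acadl with GW3965 in both genotypes, Acadm with GW3965 in Gata4LKO and Hadhb between genotypes with vehicle, and none of these passed the adjusted threshold.

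Per length of annotated exon, Acaa2 stood highest and Hadhb lowest. Acaa2 reached 7074 ± 672 normalized counts per kb (SD, n = 17 libraries), above every library's value of the other 9 genes. Acadl (2315 ± 397), Acadvl (2269 ± 344) and Acadm (1962 ± 335) followed and overlapped, and Cpt1a (1487 ± 197) overlapped Acadm. Cpt2 (903 ± 80.8), Hadha (766 ± 87.4) and Etfdh (673 ± 72.4) formed an overlapping run below the range of Cpt1a. Slc25a20 (430 ± 56.9) overlapped Etfdh at its top end, and Hadhb (68.01 ± 10.5) lay below all others. With the length of the longest coding transcript in place of all annotated exons, a choice made after seeing the data, the ends of the order were the same, but Acadm moved to the second place (3751 ± 640), Etfdh (2125 ± 228) stood above Hadha (1665 ± 190), and Cpt2 (910 ± 81.4) below Slc25a20 (1167 ± 155).

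The carnitine shuttle is made up of Cpt1a, the outer membrane carnitine palmitoyltransferase that sets the rate of entry, Slc25a20, the carnitine-acylcarnitine translocase of the inner membrane, and Cpt2, which returns the acyl group to CoA in the matrix. Cpt1a (chr19:3322334-3385733) was at 13270, 11432, 9380 and 14032 normalized counts in control vehicle and at 9312, 9264, 11733 and 10647 in control GW3965. It was at 11623, 11873, 12768 and 11658 in Gata4LKO vehicle and at 11368, 11872, 10944, 8837 and 13162 in Gata4LKO GW3965. The groups overlapped in both genotypes, and the lowest value of all belonged to replicate 17, the library with the largest mitochondrially encoded share. Its log2 difference with GW3965 was -0.16 ± 0.10 (SE; limma adjusted p = 0.428) averaged over genotypes, with an interval from -0.37 to 0.04, and it was the lowest of the 10 genes.

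Slc25a20 (chr9:108662088-108684641) and Cpt2 (chr4:107903981-107923610) stood below Cpt1a per kb of annotated exon in every library, as given above. Slc25a20 ran from 1612 to 2165 in control vehicle, from 2008 to 2214 in Gata4LKO vehicle, from 1844 to 2599 in control GW3965 and from 1765 to 2423 in Gata4LKO GW3965. The corresponding ranges of Cpt2 were 1803 to 2260, 2003 to 2317, 1998 to 2382 and 1879 to 2464. All 4 groups overlapped for both genes, and their log2 differences with GW3965 averaged over genotypes were 0.09 ± 0.10 and 0.10 ± 0.07 (limma adjusted p = 0.682 and 0.525).

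Acyl-CoA dehydrogenases take the first oxidative step, Acadvl on very-long-chain, Acadl on long-chain and Acadm on medium-chain substrates. Acadl (chr1:66830839-66863277) held 4956, 3389, 3164 and 4157 normalized counts in control vehicle and 4561, 5650, 4441 and 5045 in control GW3965. It held 4186, 4486, 4149 and 4273 in Gata4LKO vehicle and 4499, 4660, 5824, 6186 and 5272 in Gata4LKO GW3965. In the livers labelled Gata4LKO every GW3965 library lay above every vehicle library. In controls, vehicle replicate 1, 1 of the 5 libraries with a high mitochondrially encoded share, overlapped the GW3965 group. The group means were 3916 ± 813 against 4924 ± 550 in control (SD, n = 4 each) and 4274 ± 151 against 5288 ± 726 in Gata4LKO (n = 4 and 5).

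The log2 difference of Acadl was 0.35 ± 0.14 in control (SE; limma adjusted p = 0.418), 0.30 ± 0.13 in Gata4LKO (adjusted p = 0.389) and 0.32 ± 0.10 averaged (interval 0.12 to 0.52, adjusted p = 0.102), which missed the threshold. It passed with DESeq2 (0.32, adjusted p = 0.0442) and without control vehicle replicate 1 (0.38, limma adjusted p = 0.0294). Without the 5 libraries with a high mitochondrially encoded share it was 0.28 (limma adjusted p = 0.14), and with that share as a covariate 0.24 (adjusted p = 0.116). The response did not differ detectably between genotypes (interaction -0.05 ± 0.19, limma adjusted p = 0.998).

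Acadm (chr3:153922357-153944632) counted 8998, 5708, 6455 and 6544 in control vehicle and 6248, 8230, 7394 and 8906 in control GW3965. It counted 7310, 7043, 6694 and 7058 in Gata4LKO vehicle and 7806, 7504, 10255, 10188 and 8175 in Gata4LKO GW3965. As for Acadl, the 2 Gata4LKO groups did not overlap, while the control groups did. Acadl and Acadm were the 2 of 10 genes with no overlap there, both higher with GW3965, against 2.91% of all genes higher and 5.25% in either direction. With GW3965 in control livers, 0 of 10 had no overlap, against 5.84%. The log2 difference of Acadm was 0.31 ± 0.14 in Gata4LKO (limma adjusted p = 0.398) and 0.24 ± 0.10 averaged (adjusted p = 0.284). It was 0.18 in Gata4LKO with the mitochondrially encoded share as a covariate (adjusted p = 0.581).

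Acadvl (chr11:70010183-70015411) counted 5780, 5798, 5428 and 6225 in control vehicle and 6529, 6599, 6724 and 4983 in control GW3965. It counted 6533, 7160, 6156 and 6290 in Gata4LKO vehicle and 6380, 6715, 7473, 3519 and 5338 in Gata4LKO GW3965. The 3 lowest values, 3519, 4983 and 5338, belonged to libraries with a high mitochondrially encoded share, and the groups overlapped. The log2 difference with GW3965 was -0.05 ± 0.12 averaged over genotypes (limma adjusted p = 0.85) and changed sign without these 5 libraries (0.13, adjusted p = 0.424).

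The 3 dehydrogenases had slopes of different sign on the mitochondrially encoded share. In a limma fit with the groups and this share, read as a slope after seeing the data, Acadvl fell by 0.28 ± 0.05 on the log2 scale per 10 percentage points of the share (adjusted p = 4.03e-04), while Acadl rose by 0.17 ± 0.05 (adjusted p = 0.0153) and Acadm by 0.18 ± 0.06 (adjusted p = 0.0172). Acaa2 fell by 0.18 ± 0.04 (adjusted p = 9.35e-04), and the other 6 genes were not called. This slope was called for 4 of 10 genes against 36.8% of all genes tested, so that a slope was common among all genes. Not every library with a high share was low for Acadvl. Control GW3965 replicate 13 and Gata4LKO GW3965 replicates 17 and 18 were the lowest. Control vehicle replicate 1 (5780) lay inside its group, and control GW3965 replicate 10 (6599) lay between replicates 9 and 12 (6529 and 6724). The part of replicate 17, at a share of 32.6%, in these slopes was not tested. The ratio of Acadl to Acadvl counts was 0.856 to 1.76 in the 5 libraries and 0.583 to 0.779 in the other 12, without overlap. The ratio of Acadm to Acadvl was 1.25 to 2.90 and 0.957 to 1.37, which overlapped. Both ratios restate the opposite slopes of these genes and are not separate evidence. How often ratios of other genes separate these libraries was not tested, nor was what sets the share. The 5 libraries comprise 1 of control vehicle, 0 of Gata4LKO vehicle, 2 of control GW3965 and 2 of Gata4LKO GW3965, so the share is not balanced over the groups.

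**Figure D3:**
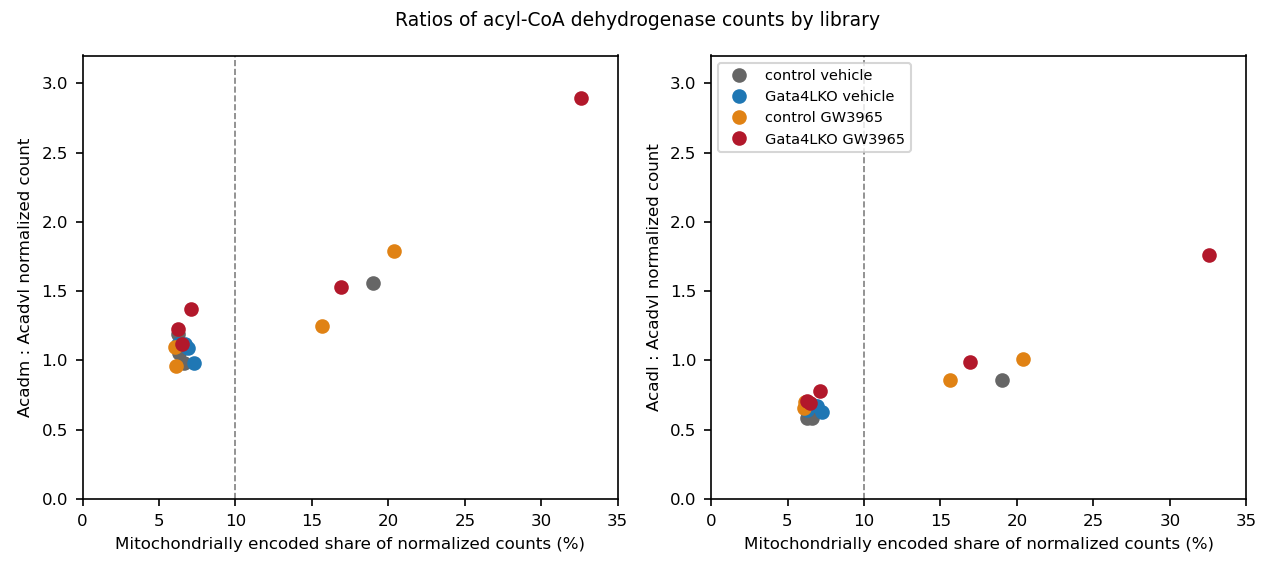
Ratio of Acadm (left) and Acadl (right) to Acadvl normalized counts (y axis) against the mitochondrially encoded share of each library in percent (x axis), coloured by group. Points are the 17 libraries and the dashed line marks 10%. The library at 32.6% has the highest ratios, 2.90 and 1.76.

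Hadha and Hadhb encode the alpha and beta subunits of the mitochondrial trifunctional protein, which hydrates, oxidizes and cleaves long-chain intermediates, and Acaa2 is the matrix thiolase that cleaves shorter ones. Hadha ran from 5401 to 6916 in control vehicle, 6545 to 7606 in Gata4LKO vehicle, 6492 to 7932 in control GW3965 and 5268 to 7831 in Gata4LKO GW3965, and all groups overlapped. Acaa2 (chr18:74779197-74806208) ran from 9794 to 11020, 10593 to 11712, 9392 to 11616 and 8438 to 12081 in the same groups, again with overlap. Their log2 differences with GW3965 averaged over genotypes were 0.08 ± 0.09 and -0.02 ± 0.08 (limma adjusted p = 0.655 and 0.92).

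Hadhb held 422, 347, 331 and 438 normalized counts in control vehicle and 439, 578, 456 and 459 in Gata4LKO vehicle. It held 401, 403, 519 and 380 in control GW3965 and 470, 525, 526, 530 and 401 in Gata4LKO GW3965. With vehicle the genotypes did not overlap, although the highest control and the lowest Gata4LKO library were 438 and 439. With GW3965 they overlapped. Hadhb was the 1 of 10 genes higher without overlap in Gata4LKO vehicle, against 3.00% of all genes higher and 6.58% in either direction. With GW3965, 0 of 10 had no overlap between genotypes, against 1.96%. The log2 difference between genotypes was 0.33 ± 0.14 with vehicle (limma adjusted p = 0.764) and 0.27 ± 0.10 averaged over treatments (adjusted p = 0.415), the largest of the 10 genes in both, and neither passed the threshold.

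Summed levels of some cell type markers also differed between genotypes with vehicle. Yet 0 of 12 Kupffer cell and macrophage markers and 0 of 12 hepatocyte markers passed limma's adjusted threshold (all genes: 0.0149%). At an unadjusted p below 0.05 they numbered 10 and 2 (all genes: 6.15%). The summed level of 12 Kupffer cell and macrophage markers was 2477 to 3450 in control vehicle and 4286 to 5258 in Gata4LKO vehicle, with all 12 higher in Gata4LKO vehicle on average. The summed level of 12 hepatocyte markers was 2112941 to 2266879 and 1703099 to 1968248. Without the 5 libraries with a high mitochondrially encoded share, 4 of these 12 were higher in Gata4LKO vehicle and 8 lower (log2 differences from -0.67 to 0.20). The sum of 10 lymphocyte and recruited myeloid cell markers was 580 to 857 in control vehicle and 992 to 1647 in Gata4LKO vehicle. In the GW3965 groups the macrophage sum was 4327 to 7145 in control and 4390 to 6470 in Gata4LKO. The hepatocyte sum there was 1785938 to 2521189 and 1610802 to 1967376, and the lymphocyte and myeloid sum 809 to 1648 and 691 to 1651. The part of these markers in the values of Hadhb was not tested, and in bulk liver fewer cells of a type and less RNA per cell cannot be told apart.

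Hadhb was counted at only 5.08% to 10.1% of Hadha in the same library. Per kb of longest coding transcript it stood at 219 ± 33.9 against 1665 ± 190 (SD, n = 17). Of the 1999 windows of 50 bases in its longest annotated coding transcript, 1247 (62.4%) occurred identically in transcripts of other genes, nearly all of them in the processed pseudogene Gm13910 (chr2:108948806-108950233), which the deposited table calls Hadhb-ps and counts at 0 to 8.17. A read that lies within such a window cannot be placed uniquely by its own sequence, and how they were counted is not given in the sources, so the level of Hadhb and its ratio to Hadha are uncertain.

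Sharing was smaller elsewhere. For Acadvl, 24% of windows lay in sequence it shares with Dvl2, a gene that overlaps its 3′ end on the opposite strand and was counted at 54 to 90.2. Without a stated strand setting, reads of that overlap cannot be told apart. Acadm shared 4.1% of windows with the processed pseudogene Gm5131 (217 to 485 counts) and Hadha 0.655% with Garem2, and the other 6 genes shared none.

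Etfdh (electron transfer flavoprotein dehydrogenase, which passes electrons to ubiquinone; chr3:79603788-79629500) counted 5461, 3943, 3941 and 4592 in control vehicle and 4741, 5912, 5422 and 4845 in control GW3965. It counted 5001, 4927, 5070 and 5180 in Gata4LKO vehicle and 5135, 5743, 5583, 5293 and 5082 in Gata4LKO GW3965. Control vehicle replicate 1 again stood above the other 3 control vehicle libraries, as for Acadl and Acadm, and the groups overlapped. The log2 difference with GW3965 averaged over genotypes was 0.16 ± 0.08 (limma adjusted p = 0.329).

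Over all 17 libraries, correlations of log2(normalized count + 1) between the 10 genes were mixed: 39 of 45 pairs had a positive Pearson r (median 0.397, from -0.418 to 0.915) and 16 passed an adjusted p below 0.05. The 5 libraries with a high mitochondrially encoded share form a set of their own, and over the other 12 the genes varied together, Cpt1a least. There all 45 pairs had a positive Pearson r (median 0.767, from 0.0467 to 0.925), and 35 passed the same threshold (permutation test, two-sided, 100000 resamples, Benjamini-Hochberg adjustment over 45 pairs), as did 35 by Spearman's rho. Of these 12, Gata4LKO vehicle replicate 6 and Gata4LKO GW3965 replicate 16, with the fewest genes above 0, were highest for Acadvl, Hadha and Hadhb. They stood at 7160 and 7473 for Acadvl. Replicate 16 was also highest for Cpt2, Acadl, Acadm and Acaa2. Both lay inside the range of the others for Cpt1a, Slc25a20 and Etfdh. Their part in the correlations was not tested. Acadvl and Acadl had r = -0.209 over all 17 libraries (permutation adjusted p = 0.504) but were the closest pair of the 12 at r = 0.925. Without the 2 libraries farthest from the median of Acadvl that r was 0.787. Hadha and Hadhb, whose starts lie in the window shown above, had r = 0.873 and rho = 0.909 (permutation adjusted p = 0.0015), and r = 0.802 without the 2 libraries farthest from the median of Hadha. Over all 17 libraries this pair had r = 0.397 (permutation adjusted p = 0.211), which did not pass.

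The 36 pairs without Cpt1a had a median r of 0.804 and 35 of them passed. The 9 pairs with Cpt1a had a median r of 0.178 (0.0467 to 0.504), none passed (lowest permutation adjusted p = 0.113), and all 9 turned negative, from -0.126 to -0.479, without the 2 libraries farthest from the median. As a background, 2.42% of the 13378 other genes tested correlated with Acadvl at least as well as did the least correlated of its 8 partners other than Cpt1a (r = 0.729), and for Acadm, the loosest of the 9, it was 7.06% (r = 0.590). For Cpt1a the corresponding share was 42.3%.

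When each group's mean was removed over the 12 libraries, correlations without Cpt1a were lower at the median and those with Cpt1a higher. In this check, added after seeing the data, all 45 pairs were still positive (median r 0.558, from 0.0556 to 0.904) but 0 of 45 passed the adjusted threshold in an exact permutation test that exchanged values within groups only (1728 arrangements, lowest adjusted p = 0.0868). The 36 pairs without Cpt1a had a median r of 0.562 and the 9 with Cpt1a 0.416, from 0.0556 with Acadm, the lowest of the 45, to 0.858 with Slc25a20. Hadha and Hadhb had r = 0.678 (exact permutation adjusted p = 0.117). The groups hold 2 to 4 of the 12 libraries each, and all genes of a library share its depth and scaling.

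**Figure D4:**
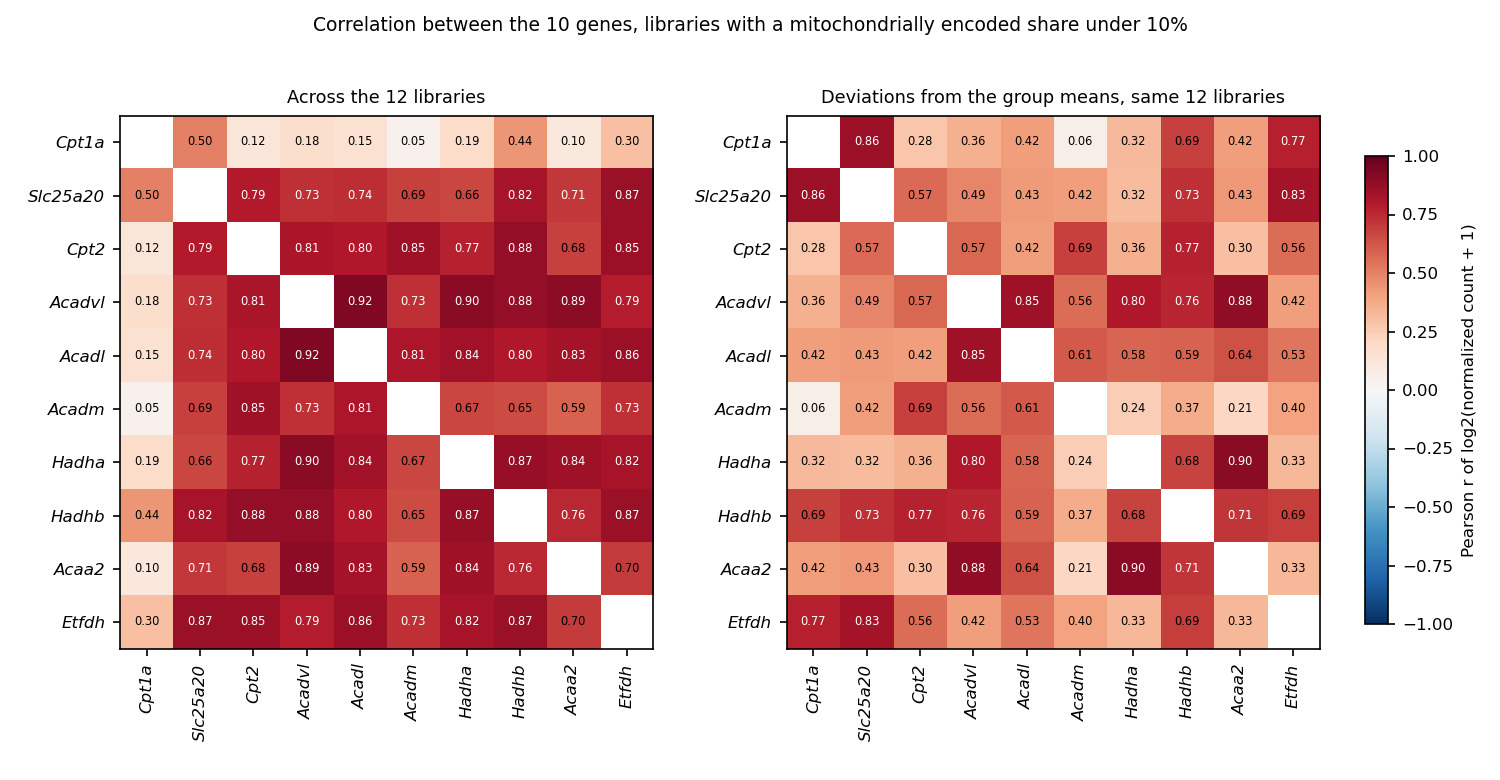
Pearson r (colour and number) between the 10 genes over the 12 libraries with a mitochondrially encoded share under 10%, across all 12 (left) and after removal of the group means (right). On the left the row of Cpt1a is palest, from 0.0467 to 0.504, and on the right all values are positive, from 0.0556 to 0.904.

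By likeness to the mean standardized profile of the 10 genes over all 17 libraries, the 5 closest of the other genes tested were Eci2 (r = 0.894), Slc22a5 (0.879), Mapre3 (0.834), 5031439G07Rik (0.830) and Pllp (0.823). Over the 12 libraries their r was 0.956, 0.883, 0.870, 0.939 and 0.820. Eci2 is an enoyl-CoA isomerase that prepares unsaturated acyl chains for oxidation, counted at 2543 to 4975, and Slc22a5 is the plasma membrane carnitine transporter, counted at 298 to 712.

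Other genes of fatty acid metabolism gave calls in the same libraries and the same test. Their lists were chosen with earlier results of these data known, so the counts are a description. With 1.78% of all genes called, 0 of 10 does not set the core enzymes apart from all genes. Beside the median of 0.09 and 0 of 10 called for the core enzymes with GW3965 averaged over genotypes, 8 of 19 fasting and PPARA targets outside mitochondrial oxidation rose, with a list median of 0.58, and none fell (all genes: 1.34% rose, 1.78% called in either direction). They include Ehhadh, the peroxisomal bifunctional enzyme, at 4204 to 6093 in control vehicle and 13521 to 59114 in control GW3965, and at 4981 to 6000 and 16347 to 45172 in Gata4LKO. Its log2 difference averaged over genotypes was 2.40 ± 0.26, a 5.28-fold change (SE; limma adjusted p = 7.43e-05). Acaa1b, a peroxisomal thiolase, rose by 2.16 ± 0.21 (adjusted p = 2.49e-05), and Acot1, a cytosolic acyl-CoA thioesterase, by 2.10 ± 0.31 (adjusted p = 0.00131). The microsomal fatty acid hydroxylases Cyp4a10 and Cyp4a14 rose by 2.02 ± 0.41 and 2.23 ± 0.50 (adjusted p = 0.0148 and 0.0282). In control livers 4 of 19 were called (all genes: 0.792%) and in Gata4LKO 2 of 19 (all genes: 0.247%).

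Among 16 other genes listed for mitochondrial oxidation 2 rose with GW3965 averaged over genotypes, at a list median of 0.08 (all genes: 1.34% rose). That list holds Slc22a5, the plasma membrane carnitine transporter, beside enzymes. Acot2, a mitochondrial acyl-CoA thioesterase, went from 34.5 to 83.5 in control vehicle to 123 to 282 in control GW3965, and from 58.7 to 64.7 to 120 to 262 in Gata4LKO (log2 difference 1.75 ± 0.21, limma adjusted p = 2.49e-04). Crat, carnitine acetyltransferase, rose by 1.08 ± 0.21 (adjusted p = 0.0126). Of 12 genes of fatty acid uptake and activation 4 rose, all of them acyl-CoA synthetases: Acsl3 by 1.42 ± 0.18 (adjusted p = 3.74e-04), Acsl1 by 0.76 ± 0.14 (adjusted p = 0.00879), Acsl4 by 0.51 ± 0.11 (adjusted p = 0.0236) and Acsl5 by 0.47 ± 0.09 (adjusted p = 0.0128). Acsl4 was also lower in livers labelled Gata4LKO, by a log2 difference of -0.65 ± 0.11 averaged over treatments (adjusted p = 0.0222).

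Of the 3 genes that set malonyl-CoA, both acetyl-CoA carboxylases rose with GW3965 averaged over genotypes. Acaca, the cytosolic form, was at 331 to 731 in control vehicle and 873 to 1445 in control GW3965, and rose by 1.19 ± 0.18 (limma adjusted p = 0.00142). Acacb, the form at the mitochondrial outer membrane, rose by 1.21 ± 0.23 (adjusted p = 0.00834). Ketogenesis gave 0 of 6 called and a median of -0.17. Without the 5 libraries with a high mitochondrially encoded share that median was -0.007, with 3 of 6 above 0. The 2 genes with the smallest p, neither called, were Bdh1 (-0.39 ± 0.15 with GW3965 in Gata4LKO, adjusted p = 0.326) and Slc16a6 (0.57 ± 0.26 between genotypes averaged over treatments, adjusted p = 0.678). Citric acid cycle enzymes gave 0 of 18, with a median of 0.04, where Fh1 (-0.43 ± 0.13 with GW3965 in control, adjusted p = 0.171) and Idh2 (0.33 ± 0.13 between genotypes, adjusted p = 0.484) came closest.

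Among 15 regulators of fatty acid oxidation 0 were called averaged over genotypes, with a median of -0.12. Without the 5 libraries with a high mitochondrially encoded share that median was -0.003, with 6 of 15 above 0. Lpin1, a phosphatidate phosphatase and coactivator of PPARA, was lower with GW3965 in control livers, by a log2 difference of -1.94 ± 0.39 (limma adjusted p = 0.0284). In Gata4LKO its difference was 0.52 ± 0.37 (adjusted p = 0.545), and the interaction did not pass (2.46 ± 0.54, adjusted p = 0.22). Without the 5 libraries with a high mitochondrially encoded share, 1.39% of all genes were called for GW3965 averaged over genotypes. The counts in that setting were 0 of 10 for the core enzymes and 7 of 19 for the PPARA targets outside mitochondrial oxidation. They were 3 of 16 for the other genes listed for mitochondrial oxidation and 3 of 12 for uptake and activation.

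**Figure D5:**
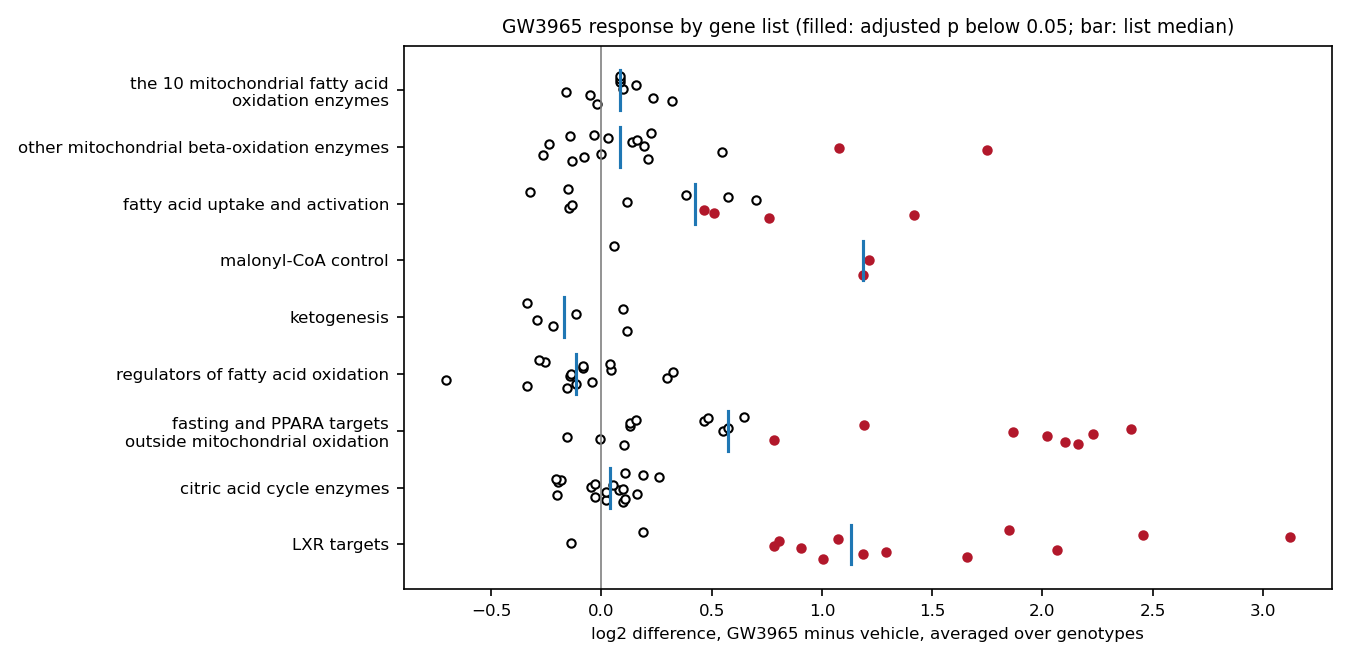
Log2 difference with GW3965 averaged over genotypes (x axis) for each gene tested, by gene list (rows). Filled points passed an adjusted p below 0.05 in limma's test and blue bars are list medians. No point of the 10 core enzymes is filled, against 8 of 19 for PPARA targets outside mitochondrial oxidation and 12 of 14 for LXR targets. Of all genes tested 1.78% passed. The lists were chosen with earlier results of these data known.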

How the data were processed

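Liver RNA was sequenced in 17 libraries (KAPA mRNA Hyperprep kit). STAR 2.6.0c, the mm10 build and DESeq2 are named in the submitters' processing notes; the read counter, annotation, strand setting and treatment of reads that fit several genes are not stated there. The deposited values are a normalized signal: in each library 100% of them were whole multiples of 1 read (within 0.05 read), so read counts could be recovered. The authors' comparison tables hold log2 fold changes and p-values, per the file headers.

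The main test was limma 3.58.1 (trend, R 4.3.3), run on log2(normalized count + 1) for the 4 title groups and all 17 libraries. Genes at 10 or more in at least 4 libraries entered it, with Benjamini-Hochberg adjustment over 13379 genes. It was tested on simulated data with the same spread setting for every gene. The simulation held no effect of the mitochondrially encoded share and does not cover that feature of the libraries. edgeR 4.0.16 and DESeq2 1.42.0 on recovered reads, other offsets, filters and scalings, and left-out libraries were alternatives. Named genes outside the 10 were, per list, those called in any comparison (at most 6, by adjusted p) or else the 2 with the smallest p, plus the 5 most alike; 1 gene that this rule names is not reported here, and for cell marker lists sums are given instead. The 10 genes and all lists were chosen with earlier results of these data known. Positions and transcripts are from GENCODE M21 (mm10). The labels do not say that each library is a separate mouse, so p-values measure the spread between libraries. Every pair of replicates differed beyond sampling noise.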

Additional observations from a re-analysis of the deposited data

Results flagged for a closer look

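Among the 40 combinations of gene and group examined, 3 held a library whose gap to the nearest of the others exceeded Dixon's 95% critical value; chance alone gives about 1 in 20 combinations. Acadvl was lowest in control GW3965 replicate 13, at 4982.84 against 6529 to 6724 in the other 3 libraries; that library has a mitochondrially encoded share of 20.4%. Hadhb was highest in Gata4LKO vehicle replicate 6, at 577.608 against 439 to 459; that library had the fewest genes above 0. Hadhb was also highest in control GW3965 replicate 12, at 519.353 against 380 to 403.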

How the results depend on the processing

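All 10 genes had the same calls in 1998 of 2000 recomputed differences, with 0 reversals of a called gene, and 2 newly passed the threshold: Acadl with GW3965 averaged over genotypes under DESeq2 (0.32) and without control vehicle replicate 1 (0.38), which made that count of called genes 1 in place of 0 (0 to 1 over the 17 left-out libraries). The other 6 comparisons gave 0 of 10 in every setting run. Correlated pairs numbered 16 of 45 over all 17 libraries, 35 over the 12 with a mitochondrially encoded share under 10%, and 0 within groups. No paired analysis was possible because the labels number the libraries without repeating a number across groups.

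The count of called genes over the whole table moved more. In the order GW3965 in control, in Gata4LKO and averaged, then genotype with vehicle, with GW3965 and averaged, then the interaction, it was 106, 33, 238, 2, 8, 30 and 2. DESeq2 gave 228, 195, 527, 50, 80, 129 and 26, and the mitochondrially encoded share as a covariate 203, 40, 323, 13, 51, 142 and 4. Leaving out 1 library gave 22 to 129, 6 to 78, 142 to 334, 0 to 9, 2 to 21, 9 to 57 and 0 to 9. Other counts moved by more than 1.5 times were, for GW3965 in control, 57 without a filter, 63 without the 5 libraries and 19 with only its groups fitted; for GW3965 in Gata4LKO, 4 without replicates 6 and 16; for genotype with vehicle, 4 scaled without mitochondrially encoded genes, 14 without the 5 libraries, 1 without replicates 6 and 16 and 21 with only its groups; for genotype with GW3965, 5 under edgeR and 1 with only its groups; for genotype averaged, 18 scaled without mitochondrially encoded genes; and for the interaction, 0 with a filter at 50, under edgeR or without replicates 6 and 16 and 1 without the 5 libraries. The cause was not tested.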
